A study of Mus musculus with 2 samples.

Results

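The nuclear genes of the mitochondrial respiratory chain were examined in the skin of Pla2g2f-transgenic mice. Members were chosen by name alone, as every array probe whose gene name begins with Ndufa, Ndufb, Ndufc, Ndufs, Ndufv, Sdh, Uqcr or Atp5, or with Cox, a digit from 4 to 8 and a letter. The rule took 116 of 41167 probes other than controls, which stand for 83 genes. Of these genes, 81 had a probe well above background, among 10456 such genes on the array. The other 2, Cox4i2 and Cox8c, each have 1 probe, which was not well above background in either channel. They encode isoforms of complex IV subunits that are known from lung and testis, respectively.

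The respiratory chain is the set of protein complexes in the inner mitochondrial membrane that turns the oxidation of nutrients into ATP. Complexes I and II pass electrons from NADH and succinate to ubiquinone, complex III passes them on to cytochrome c, and complex IV hands them to oxygen. Complexes I, III and IV pump protons, and complex V, the ATP synthase, uses the returning protons to make ATP. Most subunits are encoded in the nucleus, and some subunits of complex IV have a form found mainly in skeletal muscle, heart or brown fat beside a widely expressed one.

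The transgenic group was hemizygous Pla2g2f-Tg/+ mice, and the controls were their littermates. All were 25 days old with a C57BL/6 background, and each genotype is represented by pooled skin RNA of 4 mice. Pla2g2f encodes a secreted phospholipase A2, and which promoter drives the transgene was not stated in the labels. Each of 2 two-colour arrays set the transgenic pool against the control pool, with the transgenic RNA in Cy5 on array 1 and in Cy3 on array 2. The labels do not name separate pools for the arrays, so the arrays were averaged as 1 replicate. There is no p-value across mice, and the gap between the arrays is the only error beside a value. That gap holds technical variation, and whether it also holds variation between mice cannot be told from the labels.

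Values below are log2 ratios of transgenic over control, scaled as deposited, which puts the median of all genes at -0.0079. The Pla2g2f probe gave 0.54 on array 1 and 0.34 on array 2, a ratio of only 1.36. The labelled tissue was checked by Krt14, a keratin of the basal epidermis, which was well above background in both pools and lay at 1.14 and 1.09. Averaged over the arrays, the Agilent spike-in RNAs stood at 0.47 on this scale. Their deposited ratios did not turn with the dyes, so only this average was used. A scale set by them moves every value down by that amount, and the same shift was applied to both arrays. It puts the mean of Pla2g2f at -0.03. On that scale 70 of the 81 members were below 0 on both arrays, as were 78.6% of all genes, and 0 members were above 0 on both, as were 10.6% of all genes. Pooled skin RNA cannot tell a change in the number of a cell type from a change in RNA per cell.

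The promoters of members on which the results turn are shown first, to set the sequence beside the ratios. RefSeq entries of the build GRCm38.p6 matched 68 of the 81 measured genes. The highest member with an entry in each complex was chosen, with the muscle or fat-linked isoforms that have one. Each run is the 250 bases before the start of transcription, 5′ to 3′ on the strand of the gene. Capitals mark matches, on either strand, to the motif of NRF1 (GCGCA, any base, then GCGC), of GABP (CCGGAAG) or of the ERR receptors (AAGGTCA). NRF1 and GABP are transcription factors known to act on many respiratory chain genes, and the ERR receptors are nuclear receptors of energy metabolism.
Ndufb10: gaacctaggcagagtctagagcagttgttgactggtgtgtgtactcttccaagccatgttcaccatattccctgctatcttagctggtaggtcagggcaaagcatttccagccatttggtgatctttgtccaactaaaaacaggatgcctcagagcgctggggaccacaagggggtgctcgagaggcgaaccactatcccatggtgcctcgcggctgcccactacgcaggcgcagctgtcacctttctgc
Sdhd: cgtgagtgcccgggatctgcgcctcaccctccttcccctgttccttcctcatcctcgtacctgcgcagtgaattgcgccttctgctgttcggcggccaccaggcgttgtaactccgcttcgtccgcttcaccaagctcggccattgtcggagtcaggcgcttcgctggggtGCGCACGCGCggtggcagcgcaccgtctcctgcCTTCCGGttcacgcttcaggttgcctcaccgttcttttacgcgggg
Uqcrh: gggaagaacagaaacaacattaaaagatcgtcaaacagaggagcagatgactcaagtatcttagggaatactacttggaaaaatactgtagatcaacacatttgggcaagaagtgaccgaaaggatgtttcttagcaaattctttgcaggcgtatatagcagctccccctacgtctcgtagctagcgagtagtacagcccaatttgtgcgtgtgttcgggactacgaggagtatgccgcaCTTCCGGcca
Cox6a1: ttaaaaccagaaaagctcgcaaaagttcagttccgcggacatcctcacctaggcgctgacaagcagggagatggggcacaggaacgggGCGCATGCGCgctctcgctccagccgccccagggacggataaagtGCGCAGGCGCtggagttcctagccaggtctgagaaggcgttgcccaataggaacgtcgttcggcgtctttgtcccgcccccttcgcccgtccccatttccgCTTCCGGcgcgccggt
Atp5g3: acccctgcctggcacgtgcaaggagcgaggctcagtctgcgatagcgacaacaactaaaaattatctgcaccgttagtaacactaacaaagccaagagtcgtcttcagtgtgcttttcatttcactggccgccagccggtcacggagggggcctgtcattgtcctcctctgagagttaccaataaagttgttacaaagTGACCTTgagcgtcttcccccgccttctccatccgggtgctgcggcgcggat
Cox7a1: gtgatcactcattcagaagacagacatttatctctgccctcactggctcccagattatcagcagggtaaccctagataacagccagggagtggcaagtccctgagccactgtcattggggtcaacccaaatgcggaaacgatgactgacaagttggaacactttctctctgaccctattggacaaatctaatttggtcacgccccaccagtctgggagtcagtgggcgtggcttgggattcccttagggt
Cox8b: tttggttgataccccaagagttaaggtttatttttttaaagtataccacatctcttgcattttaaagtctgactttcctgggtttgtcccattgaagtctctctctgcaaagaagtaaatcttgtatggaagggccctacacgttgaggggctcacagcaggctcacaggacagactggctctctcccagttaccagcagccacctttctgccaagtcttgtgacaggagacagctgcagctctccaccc
Ndufb10 lies at chr17:24724424-24724673 on the minus strand, Sdhd at chr9:50603850-50604099 on the minus strand and Uqcrh at chr4:116075071-116075320 on the minus strand. The windows of Cox6a1, Atp5g3 and Cox8b, all on the minus strand, are chr5:115348959-115349208, chr2:73911327-73911576 and chr7:140900447-140900696. That of Cox7a1, on the plus strand, is chr7:30183921-30184170. Sdhd held 1 match each for NRF1 and GABP, Cox6a1 held 2 for NRF1 and 1 for GABP, Uqcrh held 1 for GABP, and Atp5g3 held 1 for ERR. The windows of Ndufb10, Cox7a1 and Cox8b held none (0) of these letters. Over the 68 members with an entry, the NRF1 letters stood in 13, or 19.1%, against 4.23% of all 27025 genes of the table. The GABP letters also stood in 13, or 19.1%, against 7.83% of all genes. The ERR letters stood in 5, or 7.35%, against 4.7%. The letters AAGATGGCG of the YY1 motif stood in 1 member, or 1.47%, against 0.71%, and TATAAA in 5, or 7.35%, against 14.3%. The windows of members were also richer in G and C, with a median of 56.4% against 52% over all genes. When the 68 members were ordered by their mean log2 ratio, the NRF1 letters stood in 7 of the upper 34 and in 6 of the lower 34, and the GABP letters in the same numbers of each. A match of letters is a description of the window and shows no binding.

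As a group, the respiratory chain genes lay slightly above the rest of the array, by an amount far below 2-fold. The median log2 ratio of the 81 measured genes was 0.17, a ratio of 1.12, with 0.18 on array 1 and 0.15 on array 2. Their means spanned -0.25 to 0.50, while those of all genes spanned -4.87 to 6.95. None (0) of the members was at least 2-fold higher on each array, a size that 3.72% of all genes reached, and none (0) was 2-fold lower, where 1.68% of all genes were. At 1.5-fold the counts were also 0 and 0, beside 8.26% and 3.8% of all genes. At 1.2-fold, a size chosen after the values were seen, 11 members were higher on each array, or 13.6%, and 0 were lower, beside 17% and 13% of all genes. The sign was shared more often than the size. Of the 81 members, 53 were above 0 on both arrays, or 65.4%, against 35.3% of all genes, and 6 were below 0 on both, against 35.7% of all genes. The other 22 had opposite signs on the arrays.

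**Figure D1:**
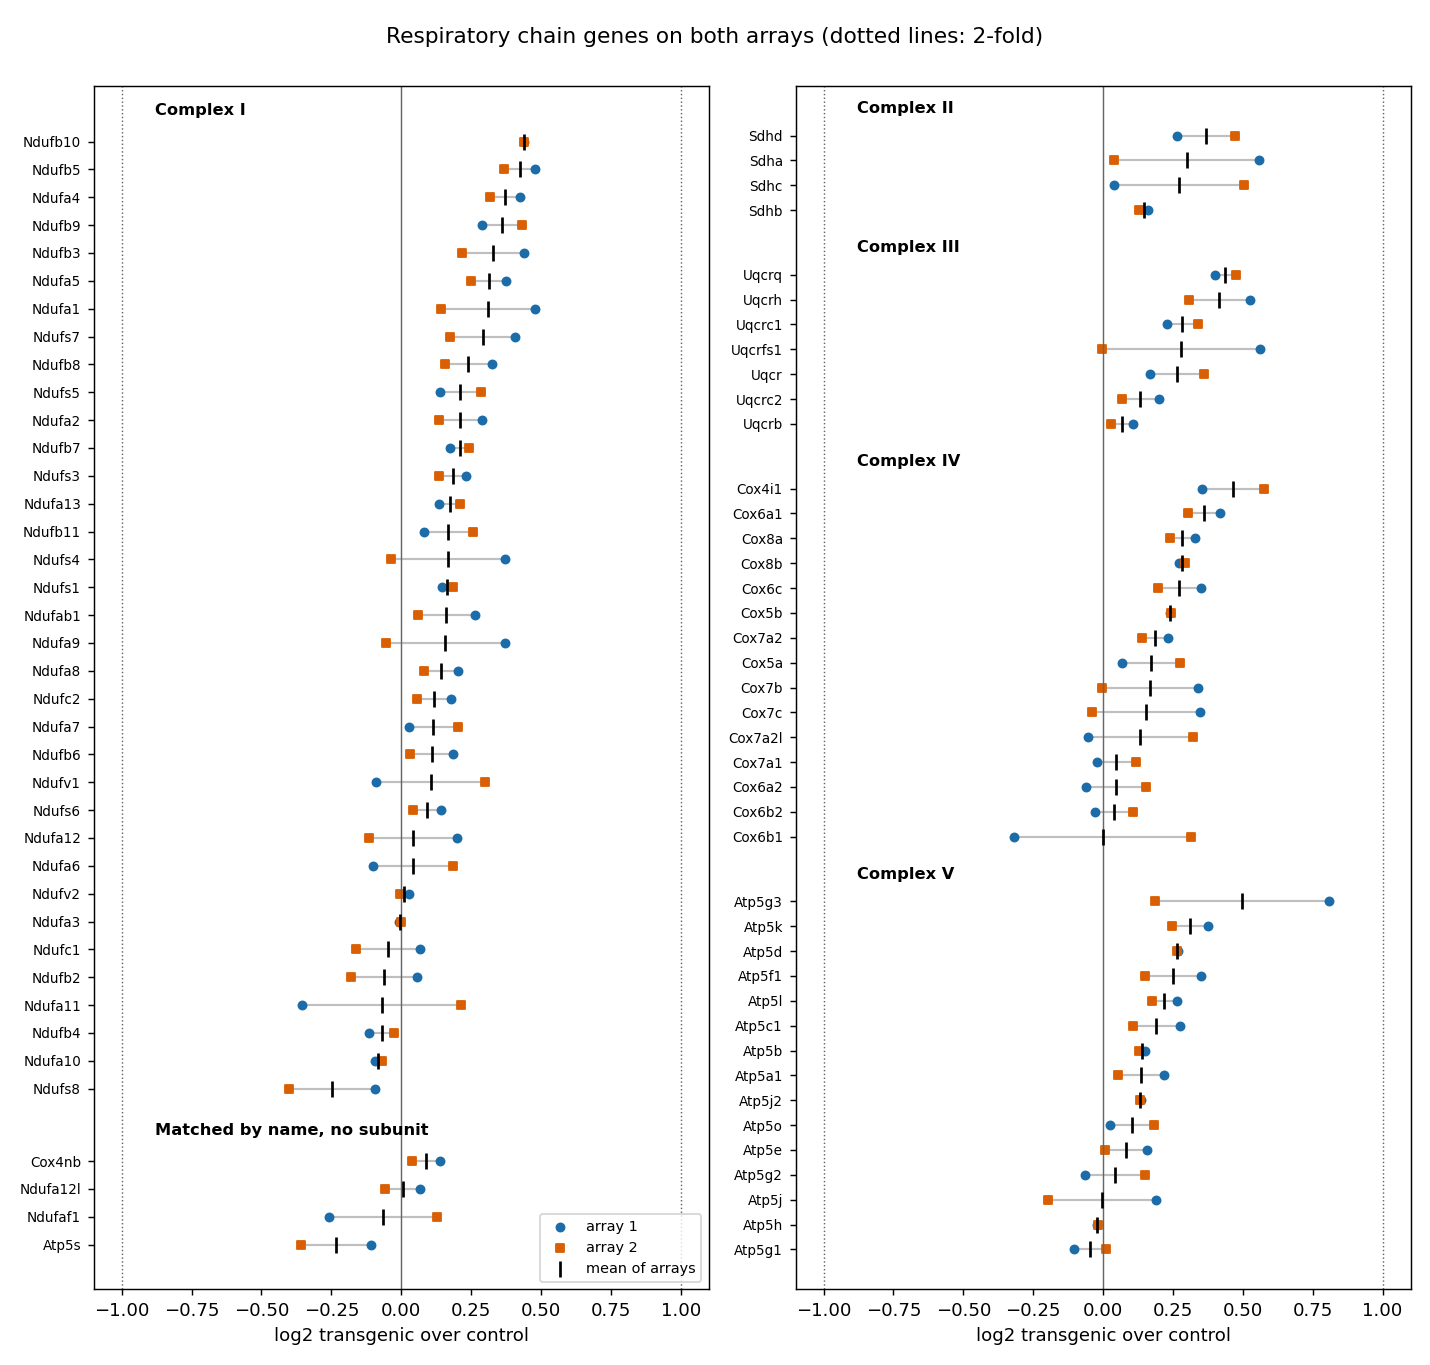
Log2 ratio of transgenic over control (horizontal axis) for 80 of the 81 measured genes (rows, by complex and ordered by mean) on array 1 (circles) and array 2 (squares), with the mean of the arrays as a black tick and 2-fold as dotted lines. All points lie inside the 2-fold lines, and 52 genes have both points above 0.

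Single genes were measured with a gap between arrays about as large as their ratio. The median absolute gap between the arrays was 0.15 over the members and 0.23 over all genes. For 43 of the 81 members, the gap was larger than the mean ratio itself. Over the 81 members the ratios of the arrays correlated weakly (Pearson's r 0.23, Spearman's rho 0.25), whereas r over all genes was 0.80. These are correlations across genes on shared arrays and describe only how far the order of the members repeats. The order of single members within a complex is therefore uncertain, while the position of the group was alike on both arrays. Of 17 members with several measured probes, 13 had probes on the same side of 0, and the largest range between probes was 0.24, for Ndufa11.

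The members are bright on the array, with a median signal of 7271 on array 1 against 907 for all genes. Signals above 2240 were found for 66 of the members and for 2614 of all genes. In that range, 72.7% of the members were above 0 on both arrays against 39.4% of all genes, and the medians were 0.17 and 0.0091. The 7 members with signals from 907 to 2240 had a median of 0.04, and the 7 with signals from 435 to 907 had one of -0.064. Below 435 there was 1 member, Cox6b2. The members' median was thus lower where they were dimmer, in the small numbers available, and the part of signal in this was not tested.

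**Figure D2:**
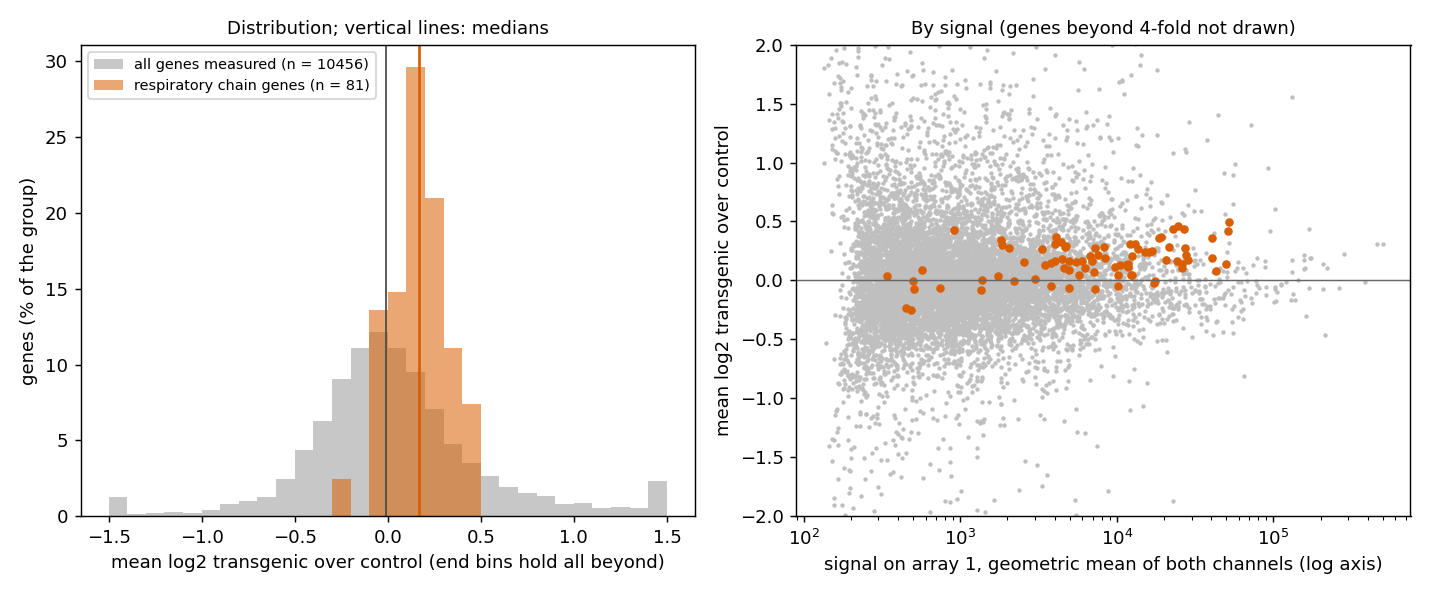
Left, share of genes (vertical axis, % of the group) by mean log2 ratio for all 10456 genes (grey) and the 81 respiratory chain genes (orange), with vertical lines at the medians of -0.0079 and 0.17. Right, mean log2 ratio against signal on array 1 (log axis): the respiratory chain genes (orange) sit mostly at high signal, between -0.25 and 0.50.

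Complex I, the NADH dehydrogenase and the largest complex, had 36 measured genes with a median of 0.16, and 0.18 and 0.15 on the 2 arrays. Of these, 23 were above 0 on both arrays, 4 were below and 9 were mixed. The highest was Ndufb10, an accessory subunit of the membrane arm, with 0.44 on array 1 and 0.44 on array 2, a ratio of 1.36. Its probe (NM_026684; mm8, chromosome 17, 24449674 to 24449733) read 23191 in the control channel of array 1 and 31464 in the transgenic channel. Ndufb5, another accessory subunit of that arm, followed at 0.48 and 0.37. Its control signal on array 1 was only 767, and with normexp and loess its value on array 1 fell to 0.25. Ndufb10 and Ndufb5 were above 0 on each array by more than the spot-to-spot SD of 0.09 and 0.10. That SD is the median over 10 probes that are each printed 10 times. It holds only variation between spots of an array. Since both genes were named as the highest of the complex, the comparison is no test of them. On the scale of the spike-ins their means were -0.029 and -0.044.

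At the lower end of complex I stood Ndufs8, an iron-sulphur subunit of the catalytic core, at -0.09 and -0.40. Its control signal of 499 on array 1 was among the dimmer ones, and with normexp and loess the value of array 1 became 0.01, so that its sign there rests on the background and dye correction. Ndufa10, an accessory subunit, lay at -0.09 and -0.07. The 7 core subunits, among them those that carry the flavin and the iron-sulphur clusters, had a median of 0.17, and the 29 accessory subunits one of 0.16. The order of these medians turned between the arrays, with 0.13 for core and 0.18 for accessory subunits on array 1, and 0.18 and 0.14 on array 2. Among the core subunits Ndufs7 gave 0.41 and 0.18, Ndufs3 gave 0.23 and 0.14, and Ndufs1 gave 0.14 and 0.19. The flavoprotein subunits had opposite signs on the arrays, Ndufv1 at -0.09 and 0.30 and Ndufv2 at 0.03 and -0.0055. By the naming of the subunits, the 10 Ndufb genes had a median of 0.22, the 8 Ndufs genes 0.18, the 14 Ndufa genes 0.15, the 2 Ndufv genes 0.06 and the 2 Ndufc genes 0.03. Ndufa4, long counted in complex I and now known as a part of complex IV, gave 0.42 and 0.32.

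Complex II, the succinate dehydrogenase, is shared with the citric acid cycle and has 4 subunits, all encoded in the nucleus. All 4 genes were above 0 on both arrays, with a median of 0.29, and 0.21 and 0.30 on the arrays. Sdhd, a membrane anchor, gave 0.26 and 0.47. Sdhb, the iron-sulphur subunit, gave 0.16 and 0.13. For the other two the arrays differed widely. Sdha, the flavoprotein, gave 0.56 on array 1 and 0.04 on array 2, and its second probe gave 0.11 and 0.66, the opposite order. Sdhc, the other anchor, gave 0.04 and 0.50. The 4 genes were thus on the same side of 0 on the arrays, as scaled. The value of 0.04 for Sdha on array 2 and for Sdhc on array 1 was within the spot-to-spot SD. On those arrays the sign of Sdha and Sdhc was therefore not settled, and their size was not determined.

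Complex III, the cytochrome c reductase, had 7 measured genes under the name rule, which does not take its subunit Cyc1. Their median was 0.28, and 0.23 and 0.31 on the arrays. Of these, 6 were above 0 on both arrays. Uqcrq, a small structural subunit, was highest at 0.40 and 0.48, a ratio of 1.35, and its signals on array 1 were 19799 in the control and 26114 in the transgenic channel. Uqcrh, the hinge protein, gave 0.52 and 0.31, and its second probe repeated this with 0.54 and 0.22. The core protein Uqcrc1 gave 0.23 and 0.34. The Rieske iron-sulphur protein Uqcrfs1 was the member with opposite signs, at 0.56 and -0.0044. Uqcr, the small subunit also named Uqcr11, gave 0.17 and 0.36. Lowest were Uqcrc2, the second core protein, at 0.20 and 0.07, and Uqcrb, at 0.11 and 0.03.

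Complex IV, the cytochrome c oxidase, had 15 measured genes with a median of 0.17, and 8 of them were above 0 on both arrays, 0 below and 7 mixed. The medians of the single arrays were 0.24 and 0.24, both above the median of the means. Cox4i1, the widely expressed form of a regulatory subunit, was highest at 0.35 and 0.58, a ratio of 1.38. Its probe (NM_009941; mm8, chromosome 8, 123560001 to 123560060) read 21757 in the control channel and 27812 in the transgenic channel of array 1. Cox6b1 was lowest with -0.32 and 0.31, the widest gap between arrays of all members, at 0.63. Its control signal on array 1 was only 557, and with normexp and loess its value on array 1 became -0.09.

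Complex V, the ATP synthase, had 15 measured genes with a median of 0.14, and 0.19 and 0.13 on the arrays. Of these, 11 were above 0 on both arrays, 1 was below and 3 were mixed. The 9 genes of the catalytic head and the stalks had a median of 0.14. The catalytic subunit Atp5b gave 0.15 and 0.13, and its partner Atp5a1 gave 0.22 and 0.05. The subunits Atp5k, Atp5l and Atp5j2 of the membrane part were above 0 on both arrays, Atp5k being the second highest of the complex at 0.38 and 0.25. Atp5h, a stalk subunit, was below 0 on both arrays, at -0.022 and -0.018, which is within the spot-to-spot SD. Its second probe had opposite signs on the arrays, at 0.12 and -0.15.

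The c ring, the rotor through which protons pass, is made of identical proteins from 3 genes. Atp5g3 had the highest mean of all members, 0.50, but this rests on array 1, with 0.81 there and 0.18 on array 2. Its probe (NM_175015; mm8, chromosome 2, 73709301 to 73709360) read 39525 in the control and 69253 in the transgenic channel of array 1. Atp5g2 gave -0.06 and 0.15, and Atp5g1 gave -0.10 and 0.01. Atp5g3 exceeded Atp5g1 by 0.91 on array 1 and 0.18 on array 2, and Atp5g2 by 0.87 and 0.03. The 0.03 over Atp5g2 on array 2 was smaller than the spot-to-spot SD, so that array did not separate these genes. The size of the difference from Atp5g1 was not settled by these arrays.

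The complexes differed little from each other. Complexes II and III had the highest medians of the means, each 0.12 above complex I. Complex II exceeded complex I by 0.04 on array 1 and 0.15 on array 2, and complex III exceeded it by 0.05 and 0.16. Complex II exceeded complex V by 0.02 on array 1 and 0.17 on array 2, and complex III exceeded it by 0.04 and 0.18. The sign was the same on both arrays, but these differences were small on array 1, and complex II has only 4 genes. Against complex IV the order turned, since complex II minus complex IV was -0.024 on array 1 and 0.062 on array 2. Complex I minus complex IV was -0.06 on array 1 and -0.09 on array 2, while the medians of the means differed by -0.0085. The 4 genes that the name rule takes but that encode no subunit lay within the range of complex I. Their median was -0.029, with Cox4nb (Emc8, a membrane protein complex subunit named for its neighbour) at 0.14 and 0.04, Ndufa12l (Ndufaf2) at 0.07 and -0.06, the assembly factor Ndufaf1 at -0.26 and 0.13, and Atp5s (Dmac2l) at -0.11 and -0.36.

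The forms of complex IV subunits found mainly in muscle and brown fat were then set against their widely expressed partners. Cox6a2, the heart and skeletal muscle form, gave -0.06 on array 1 and 0.15 on array 2, while Cox6a1 gave 0.42 and 0.30. The difference was -0.48 and -0.15, a mean of -0.31, so the muscle form was lower relative to its partner on both arrays. Cox7a1, a form of muscle and brown fat, gave -0.02 and 0.12, and Cox7a2 gave 0.23 and 0.14. That difference was -0.26 on array 1 and -0.021 on array 2, and on array 2 it was smaller than the spot-to-spot SD. Cox8b, likewise a form of muscle and brown fat, gave 0.27 and 0.29, and Cox8a gave 0.33 and 0.24. They differed by -0.059 and 0.056, with no shared sign. The 3 muscle or fat-linked forms were therefore not alike. All 3 probes were well above background in both channels, with control signals of 12584 for Cox6a2 (mm8, chromosome 7, 127996794 to 127996853), 5753 for Cox7a1 (mm8, chromosome 7, 29894078 to 29894689, a span that is longer than the probe) and 4269 for Cox8b (mm8, chromosome 7, 140750273 to 140750332). These differences within an array do not depend on where its 0 is set. Cox6b2, a form known from testis, gave -0.03 and 0.11 beside the values of Cox6b1, and their difference changed sign between the arrays, at 0.29 and -0.21.

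**Figure D3:**
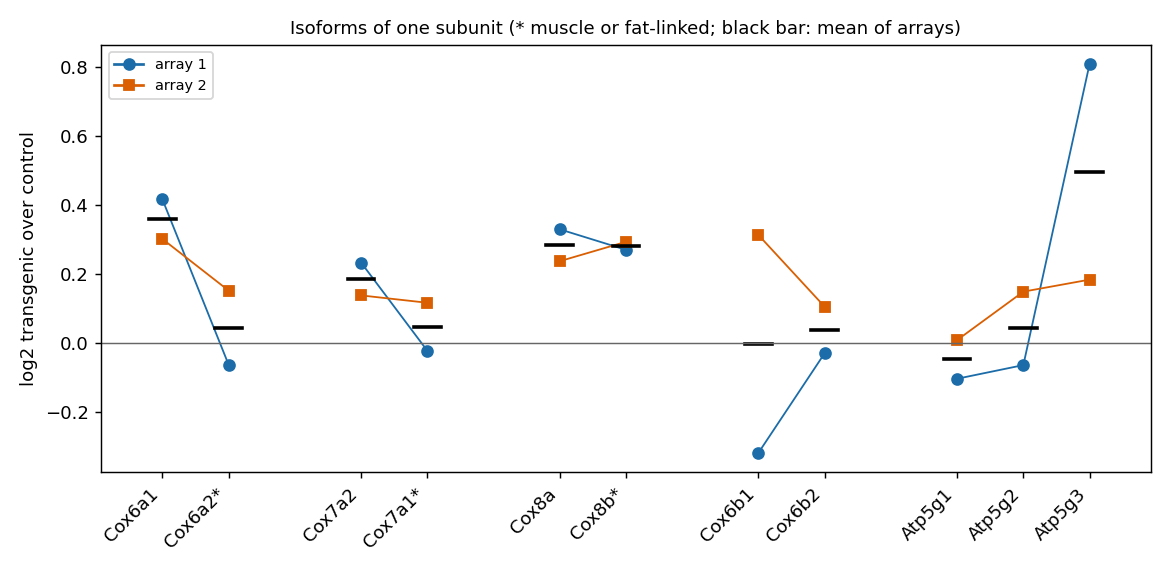
Log2 ratio of transgenic over control (vertical axis) for isoforms of one subunit on array 1 (circles) and array 2 (squares), with black bars at the mean of the arrays and asterisks on the muscle or fat-linked forms. Cox6a2 lies below Cox6a1 on both arrays, Cox8b is level with Cox8a, and Atp5g3 is high on array 1 only.

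Markers of the cell types that use these forms were measured beside them. Of 16 skeletal muscle genes, 15 were measured, with a median of 0.12, and -0.0020 and 0.15 on the arrays. On both arrays, 6 were above 0, or 40%, and 2 were below, or 13.3%, against 35.3% and 35.7% of all genes. The myosins Myh2 and Myh1, whose close relatives one probe can share, were the only 2 at least 2-fold higher, with means of 1.34 and 1.32, while the myosin Myh4 was lowest at -0.46. The creatine kinase Ckm gave -0.48 and 0.14, and the muscle actin Acta1 0.11 and 0.27. The summed signal of the list on array 1 was 823437 in the control and 969151 in the transgenic channel, and the slow myosin Myh7 was not well above background. Fat cell genes stood much higher. Of 12 adipocyte genes, 11 were measured and all 11 were above 0 on both arrays, with a median of 1.35. Of these, 7 were at least 2-fold higher, against 3.72% of all genes. The highest was Cfd, the secreted protease adipsin, at 2.02 and 2.13, and the lowest Slc2a4, the insulin-dependent glucose transporter, at 0.60 and 0.53. The summed signal was 118690 in the control and 369788 in the transgenic channel, and Lep was not well above background. Of 7 brown fat genes, 5 were measured, with Cidea, which sebaceous glands also express, highest at 2.45 and 2.41 and Ppargc1a lowest at -0.34 and 0.19. Cidea and Elovl3, the latter at 2.13 and 1.89, were the only 2 at least 2-fold higher, against 3.72% of all genes. The summed signal of the 5 genes, which includes Cidea and Elovl3, was 5803 in the control and 27318 in the transgenic channel. That sum does not show a rise of each gene of the list. Prdm16 and Dio2 stood well above background in the transgenic pool only, so they passed the filter through it and their ratios have no exact size. The defining marker Ucp1 and also Ppara were not well above background. Of 12 sebaceous gland genes, 7 were measured, all above 0 on both arrays, with a median of 1.70, from Dgat2 at 0.95 and 0.78 to Fa2h at 2.80 and 2.68. Their summed signal was 24379 in the control and 82478 in the transgenic channel, and Scd3, Awat2, Mc5r and Far2 were not well above background, while no probe is named Awat1. Keratinocyte genes had a median of 0.80 over 6, from Trp63 at 0.05 and -0.39 to Krt1 at 2.23 and 2.30, with summed signals of 293396 and 466926. Of 9 hair shaft keratins 7 were measured, all 7 at least 2-fold lower, against 1.68% of all genes. Krt86, Krt31 and Krt34 did not stand well above background in the transgenic pool, so they passed the filter through the control and their ratios have no exact size. The others ranged from Krt33a and Krt33b at -4.87 to Krt85 at -2.14. The list had summed signals of 83320 in the control and 10079 in the transgenic channel. The part of these cell types in the ratios of the respiratory chain genes was not tested.

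Other mitochondrial genes were taken from fixed lists. The citric acid cycle and pyruvate dehydrogenase genes, which feed electrons into the chain, resembled the chain itself: all 16 were measured, with a median of 0.21. On both arrays, 13 were above 0, or 81.2%, and 1 below, or 6.25%, against 35.3% and 35.7% of all genes. Dlat, a pyruvate dehydrogenase subunit, was highest at 0.65 and 0.50, and Fh1, the fumarase, lowest at -0.08 and -0.20. No member of this list (0) reached 2-fold on each array. Suclg2, at 0.47 and 0.02, is among the 13 above 0, but stood well above background in the transgenic pool only. Genes for assembly factors and cytochrome c, with Cyc1 listed beside them, had a median of 0.07 over 19 of 22. On both arrays, 8 were above 0, or 42.1%, and 4 below, or 21.1%, beside 35.3% and 35.7% of all genes. The list spanned Acad9, an assembly factor of complex I and an acyl-CoA dehydrogenase, at 0.65 and 0.67, to Atpaf1, an assembly factor of complex V, at -0.53 and -0.54, and both values repeated closely between the arrays. Cytochrome c itself, Cycs, gave 0.02 and 0.23. Cyc1 encodes cytochrome c1, a complex III subunit that the name rule does not take, and gave 0.24 and 0.23. Tmem126b and Ttc19 stood well above background in the transgenic pool only.

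Carriers of the inner and outer membrane had a median of 0.18 over 10 of 12, with 7 above 0 on both arrays, or 70%, against 35.3% of all genes. The citrate carrier Slc25a1, which exports citrate for fatty acid synthesis, was the 1 gene at least 2-fold higher, at 1.44 and 1.78. The adenine nucleotide carrier Slc25a5, which trades ATP for ADP, was lowest at -0.28 and -0.15, while Slc25a4, its muscle and heart form, gave 0.38 and 0.26. Regulators of mitochondrial biogenesis had a median of -0.053 over 10 of 12. On both arrays, 4 were above 0, or 40%, and 4 below, or 40%, near the 35.3% and 35.7% of all genes. The coactivator Ppargc1b was highest at 0.58 and 0.89, and the nuclear receptor Esrra, which it coactivates, gave 0.35 and 0.72. The mitochondrial transcription factor Tfam gave 0.13 and 0.18, and Tfb1m, an rRNA methyltransferase, was lowest at -0.07 and -0.73. Nrf1 and Gabpb1 were not well above background. None (0) of these regulators reached 2-fold on each array. No probe (0) carried the name of any of the 13 subunits encoded in the mitochondrial genome, so these were not analysed here.

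**Figure D4:**
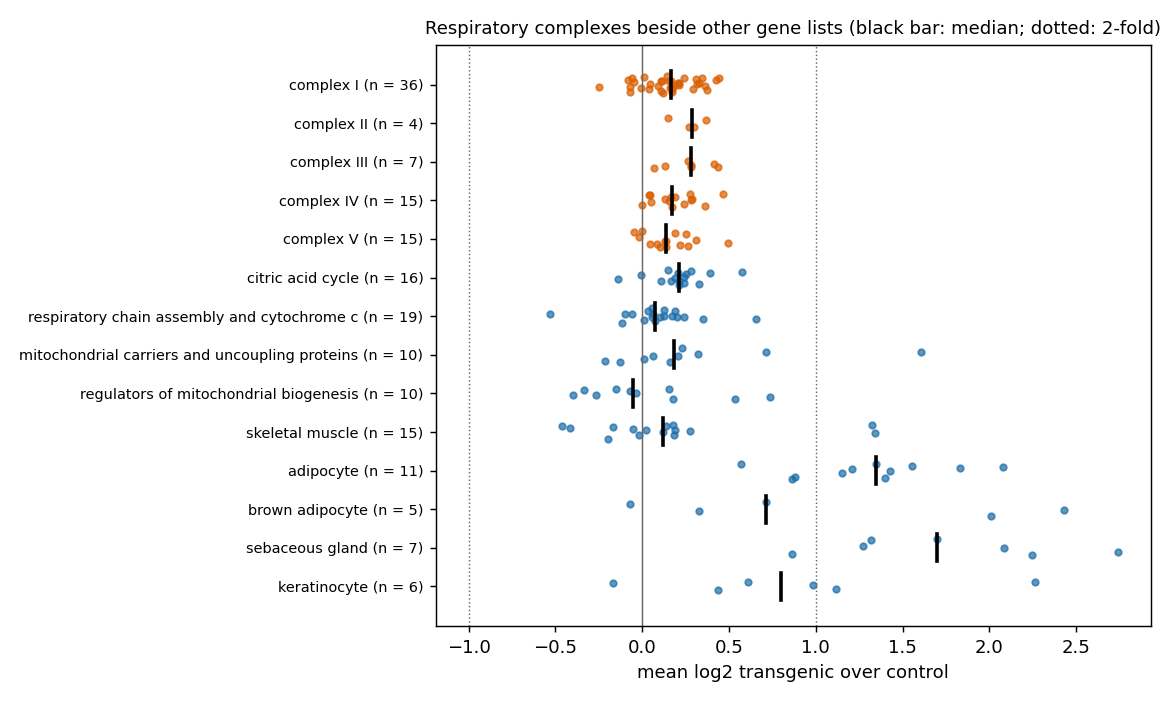
Mean log2 ratio of transgenic over control (horizontal axis) for each measured gene (points) of complexes I to V (orange) and of other gene lists (blue), with black bars at the medians and 2-fold as dotted lines. The medians of the complexes lie between 0.14 and 0.29, near that of the citric acid cycle at 0.21, and below those of the adipocyte and sebaceous gland lists at 1.35 and 1.70.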

How the data were processed

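Total RNA from skin, 500 ng per labelling, received Cy3 or Cy5 before hybridisation to Agilent mouse arrays, per the protocols in the labels. The scanner software was Agilent Feature Extraction 9.5.1.1, per the file headers. It took background off each deposited intensity, corrected spatial trends, and balanced the dyes with linear and LOWESS methods. Dim signals are surrogates, so ratios near background are compressed. The deposited value table holds log10 of Cy5 over Cy3, 1 column per array. For array 1 it matched the processed signals at all 43790 features, within 1e-08. The column of array 2 correlated with that of array 1 at -0.58 over 41534 spots that are not controls and at 1.00 over the 10 spike-in probes well above background, and was turned for the exchanged dyes. The deposited scanner file also holds another kind of value, flags of 0 or 1 that mark a spot as well above background or as an outlier, and these were used only as filters. Steps after Feature Extraction and the scanner output of array 2 were not used here.

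Values were converted to log2 transgenic over control and averaged over the arrays with pandas 2.3.3. Control spots and 29 outlier spots did not enter, and each probe took the mean of its spots. A probe was kept if array 1 found it well above background in 1 channel or both, and the brightest stood for a gene. The 10 probes printed 10 times gave a median SD of 0.09 for array 1 and 0.10 for array 2. Precision is limited by the number of arrays. The size rule asked for a ratio of 2 in 1 direction on both arrays. With limma 3.58.1, array 1 was also processed by normexp (offset 50) and loess. Other alternatives were each array alone, other filters, centring on the medians or the spike-ins, probe means and a 1.5-fold threshold.

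Genes named are the 2 highest and 2 lowest of each complex, all of complex II, isoforms of one subunit, and the highest and lowest of each other list; others named were chosen after their values were seen. The values of 1 member are not reported here, though it is counted in the medians and counts. The members and lists were chosen with earlier results of these data known.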

Additional observations from a re-analysis of the deposited data

How the results depend on the processing

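The sign of the group depends on the scale. Centred on the spike-in RNAs, the median of all members became -0.30, those of complexes I to V -0.31, -0.18, -0.19, -0.30 and -0.33, and 0 members were above 0 and 70 below 0 on both arrays, as were 10.6% and 78.6% of all genes, whose median was -0.48. All other alternatives kept these medians above 0. With array 1 by normexp and loess, the median of all members was 0.14, that of complex I 0.14 and that of complex IV 0.15, and Cox8b minus Cox8a turned to 0.0011. The complex IV median was 0.17 with dim probes kept, 0.17 with the arrays centred on their medians and 0.18 with Ndufa4 counted there, an alternative chosen after seeing the data. From single arrays, the medians ranged from 0.21 to 0.30 for complex II, from 0.24 to 0.24 for complex IV and from 0.13 to 0.19 for complex V. Cox8b minus Cox8a ranged from -0.059 to 0.056. Taken alone, array 1 had 17 members below 0, and array 2 had 17. Of 108 values under alternatives, 86 kept their sign and stayed within the spread between arrays or, for counts, within 1.5-fold. A further 14 moved beyond that, and 8 changed sign, some of them by less than the spread. For the complex IV median the spread was only 8.6e-05, so that even small shifts were counted as moved. Cox6a2 minus Cox6a1 stayed below 0 under its alternatives, from -0.48 to -0.15, but most of them could not move it. Filters, centring and probe means left it at -0.31, since each gene has 1 measured probe and centring cancels within an array. With normexp and loess on array 1 it was -0.28. For the isoform differences the spread comes from the same 2 arrays, so a single array could not move them beyond it. Part of the 86 was thus fixed in advance. Each ratio already sets the transgenic pool against the control pool within an array. No further pairing was possible because the labels give 1 group of array comparisons. Array signal limited Cox4i2 and Cox8c, which could not be assessed.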
